A study of Bos taurus and Ovis aries and Capra hircus with 27 samples.

Results

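Homeobox genes encode transcription factors that bind DNA through the homeodomain, a fold of 60 residues whose last helix lies in the major groove. Many of them set the identity of organs and of positions along the body axis in the embryo, and a smaller set stays active in adult tissues. In mammals the Hox genes sit in clusters and are all read in the same direction, and their order along the chromosome follows the order in which they act along the body. Other families, such as the NK-2, POU and HNF1 types, are known for roles in heart, lymphoid tissue, liver and kidney.

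The goat homeobox models were those goat identifiers, other than ones marked as copies, whose deposited protein held the helix motif tryptophan, phenylalanine, any residue, asparagine, arginine or histidine, arginine. The tryptophan is residue 48 of the homeodomain and the asparagine is residue 51. The motif was found in 97 of 22131 goat identifiers, of which 18216 had a protein in the file used. The last entry of that file is cut off, so that further homeobox models may be missing from the 97. A further 2 models with the motif were marked as copies and left out. Expression was measured by strand-specific messenger RNA sequencing of heart, liver and kidney of goats (Capra hircus) of a strain given as indigenous, about 3 years old, with 3 libraries per tissue and 9 in all. By the study's methods the animals were unrelated adult females. No treatment or allele was given for these samples. Tissue was the factor compared, and whole organs hold many cell types. Replicate number was a further factor, which the main test left out. The study states that the goat heart samples duplicate other deposited samples. Whether heart differs from liver and kidney by more than tissue was not tested. Values are FPKM, fragments counted relative to transcript length and to all mapped fragments of the library, recovered from the deposited log2(FPKM + 1). The deposited tables held no counts, so depth was unknown and no counting intervals are given.

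The identifiers carry no gene symbols, so the models are named by identifier and by features of their own protein. Of the 97 models, 47 carried a cattle protein identifier, 46 a human one and 4 were predicted models. Protein lengths ran from 79 to 758 residues, with a median of 223. The full 60 residues of the homeodomain were present in 94 models. The core leucine at residue 16 and phenylalanine or tyrosine at residue 20 were both present in 87. Residue 50, which contacts DNA bases and shifts the preferred site, was glutamine in 78 models, cysteine in 7, lysine in 6, serine in 3, alanine in 2 and arginine in 1. By gene position and sequence features, 31 models lay in clusters of the Hox type, 21 were paired-like, 7 were of the POU class, 5 of the NK-2 type with tyrosine at residue 54, 4 had threonine at residue 47, 3 were of the LIM class, 2 of the HNF1 type and 2 of the sine oculis type. The other 22 fell in none of these classes.

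The tissue labels were checked with gene families recognised by sequence, chosen after the values were seen. The summed FPKM of 20 models with an antigen receptor variable domain, the mark of B and T lymphocytes, was 304, 126 and 119 in the 3 libraries labelled kidney. It was 1.44, 1.40 and 1.21 in heart and 3.91, 0.452 and 0.159 in liver. The summed FPKM of 7 models of the aquaporin type, water channels of which several are abundant in kidney epithelium, was 84.1, 52.6 and 59.0 in the libraries labelled kidney, against 86.9, 85.6 and 58.1 in heart and 542, 352 and 532 in liver. The summed lymphocyte genes were thus high in every library labelled kidney, and the summed water channels were not. Which water channels the 7 models are was not known. A single model held 353 of the 542 FPKM in liver replicate 1 and 83.5 of the 86.9 in heart replicate 1. The sum therefore cannot show whether kidney epithelium was present. The defining marker genes of heart muscle, hepatocytes and kidney epithelium could not be looked up by symbol and were not checked. The lymphocyte values put the kidney label in doubt, and which tissue the 3 libraries hold was not settled. "Kidney" below means these libraries as labelled, so that no kidney value here can be taken as a measurement of kidney without that doubt. The part of lymphoid cells in any such result was not tested.

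Homeobox models were sparse in all 3 tissues. A model was called expressed in a library above 0.5 FPKM. In heart 10, 14 and 13 models were expressed (12.3 ± 2.08, SD, n = 3). In liver the numbers were 8, 12 and 9 (9.67 ± 2.08, n = 3). In the libraries labelled kidney they were 24, 23 and 25 (24.0 ± 1.00, n = 3). The kidney-labelled libraries lay above every heart and liver library, while heart and liver overlapped. As a share of the 97 models, means were 12.7% in heart, 9.97% in liver and 24.7% in kidney, against 53.3%, 52.8% and 57.7% of all goat identifiers. Above 0.5 FPKM in all 3 libraries of a tissue were 10 models in heart, 7 in liver and 20 in kidney.

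The summed level of the 97 models was 59.3, 82.0 and 64.6 FPKM in heart (68.6 ± 11.9, SD, n = 3), 45.5, 24.8 and 39.8 in liver (36.7 ± 10.7) and 99.8, 149.9 and 127.2 in kidney (125.6 ± 25.1). The tissues did not overlap in this sum of unscaled FPKM. The sum was not computed under other scalings. Median ratio factors were 1.29 to 1.51 in kidney, 0.774 to 0.941 in heart and 0.648 to 0.904 in liver. Division by them lowers the kidney sums and raises the others, so that the gaps depend on the scaling. A few models carried most of it. In heart the NK-2 type model GOAT_ENSP00000327758 made up 38.8% of the sum and the 5 highest models 80.2%. In liver the threonine-47 model GOAT_ENSP00000282728 made up 57.8% and the 5 highest 82.4%. In kidney the sum was spread more widely, with 24.0% in the threonine-47 model GOAT_ENSBTAP00000014710 and 63.3% in the 5 highest.

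**Figure D1:**
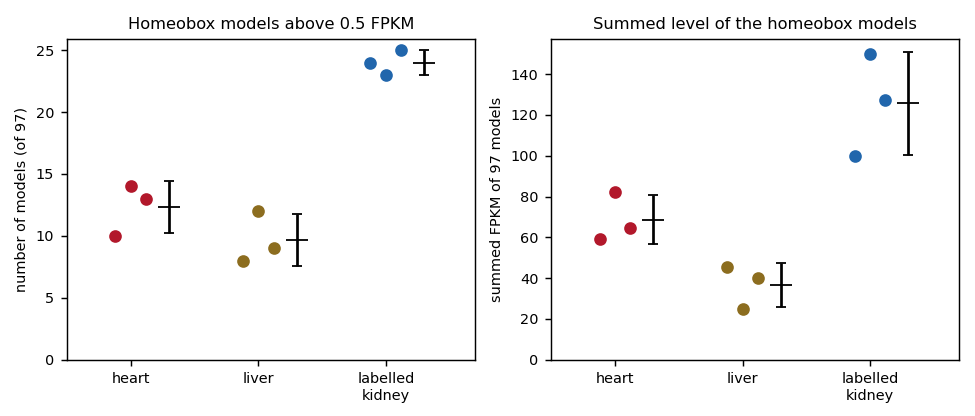
Number of homeobox models above 0.5 FPKM (left) and their summed FPKM (right) in each goat library, as coloured points by labelled tissue, with the mean ± SD of 3 libraries in black. In unscaled FPKM, the 3 libraries labelled kidney, with 23 to 25 models and 99.8 to 149.9 FPKM, lie above every heart and liver library in both panels.

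Most homeobox models were silent or nearly so. Of the 97, 42 were listed at 0 in all 9 libraries and 21 were detected but never above 0.5 FPKM. Another 12 passed 0.5 FPKM in at least 1 library but in fewer than 3 and were not tested. The remaining 22 were above 0.5 FPKM in at least 3 libraries and entered the tests, fitted with limma on log2(FPKM + 1) over all 13634 goat identifiers that passed the same filter. Of these 22, 4 were above 0.5 FPKM in all 9 libraries. A further 6 passed the filter through kidney libraries alone, 1 through liver libraries alone and none through heart alone, so that a difference for them is partly built into the filter. Some classes had little or no signal. Both models of the sine oculis type were listed at 0 in every library, and the 3 LIM-class models did not exceed 0.0717 FPKM anywhere. Of the 21 paired-like models, 11 were listed at 0 throughout, and of the 6 models with lysine at residue 50 none passed 0.5 FPKM.

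Between heart and liver, 6 of the 22 tested models were higher in heart, a share to be read against the 29.6% of all tested identifiers that were higher in heart (limma, Benjamini-Hochberg adjusted p at or below 0.05). Higher in liver were 2 models, where 19.6% of all identifiers were. Against kidney, 2 were higher in heart (17.9% of all identifiers) and 13 higher in kidney (45.3%). Between liver and kidney, 1 was higher in liver (13.4%) and 18 in kidney (51.6%). Called elevated were models that passed the test against both other tissues. By this rule 2 were elevated in heart (14.5% of all identifiers), 1 in liver (9.59%) and 11 in kidney (34.2%). Of the 11, 6 had passed the filter through kidney libraries alone, as had the liver model through liver libraries. In 10 of the 11 the kidney values did not overlap those of the other tissues, as in 4466 of the 4669 identifiers elevated in kidney. As a share of those tested, this was 45.5% of the 22 models and 32.8% of all identifiers. The median log2 difference of the 22 models was 0.21 for heart minus liver, −0.92 for heart minus kidney and −1.28 for liver minus kidney. Over all tested identifiers these medians were 0.10, −0.55 and −0.69. The order changed with no filter, where the medians of 55 models were 0, −0.10 and −0.23, against 0.015, −0.28 and −0.43 over all. Without kidney replicates 1, 2 and 3, heart minus kidney was −0.78, −0.42 and −0.07 for the models. Over all identifiers it was then −0.55, −0.46 and −0.49. Liver minus kidney was −1.35, −1.15 and −1.13 for the models, against −0.71, −0.62 and −0.63.

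The tilt toward kidney among all identifiers moved with the scaling. Median ratio scaling sets the medians over all identifiers close to 0 by design, and they were −0.04, −0.03 and −0.0003. Those of the tested models under this scaling were 0.24, −0.51 and −0.79. The split between heart and kidney was then 4 models higher in heart and 11 in kidney (29.2% and 28.7% of all identifiers), and with quantile normalization 6 and 9 (28.0% and 30%). Elevated in kidney were 6 models with median ratio scaling (16.3% of all identifiers) and 5 with quantile normalization (19.4%). The comparisons share libraries, so that each is given with its own values and they are not set against each other.

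**Figure D2:**
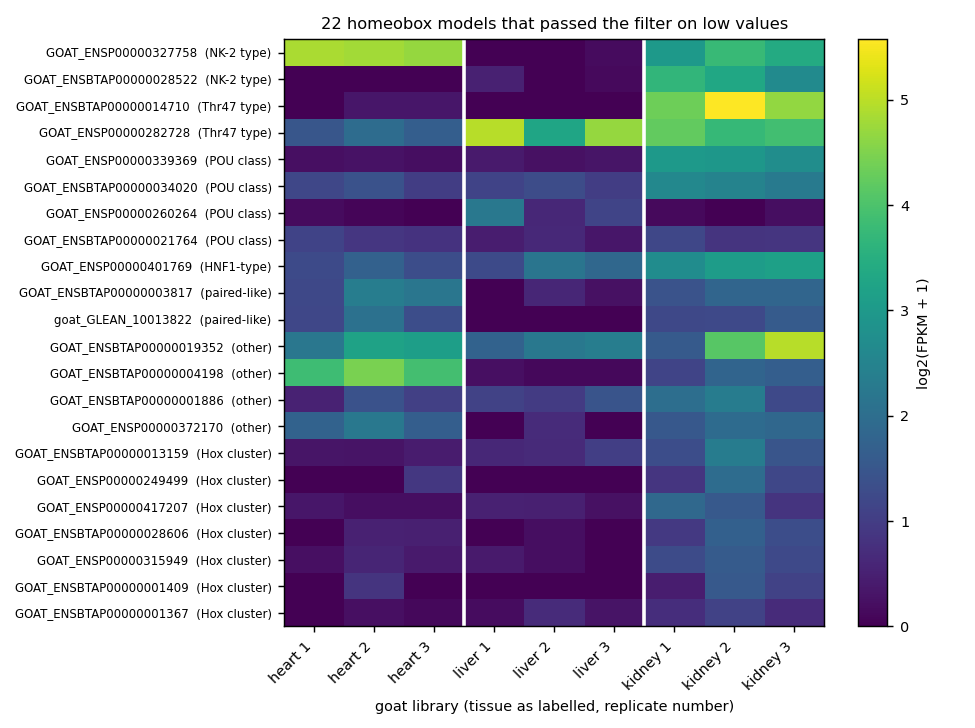
Level, as log2(FPKM + 1) by colour, of the 22 homeobox models that passed the filter (rows, with their class) in the 9 goat libraries (columns, by labelled tissue and replicate). GOAT_ENSP00000327758 and GOAT_ENSBTAP00000004198 are brightest in heart, GOAT_ENSP00000282728 in liver and kidney, and GOAT_ENSBTAP00000014710 and GOAT_ENSBTAP00000028522 are dark outside kidney.

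NK-2 type homeodomains carry a tyrosine at residue 54 and include factors needed for heart muscle and for lymphoid organs. GOAT_ENSP00000327758 (scaffold 782, 1395314 to 1397468, plus strand, 214 residues) was the highest homeobox model of heart. It stood at 28.4, 26.9 and 24.7 FPKM in heart, 0, 0 and 0.126 in liver and 7.06, 12.5 and 9.68 in kidney. The 3 tissues did not overlap, with heart highest and liver close to 0. The log2 difference was 4.73 ± 0.21 (SE) for heart minus liver (limma adjusted p = 1.06e-07) and 1.39 ± 0.21 for heart minus kidney (limma adjusted p = 0.00037).

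The second NK-2 type model tested, GOAT_ENSBTAP00000028522 (scaffold 532, 2833520 to 2835619, minus strand), shared 56 of 60 homeodomain residues with the first. It was listed at 0 in all 3 heart libraries, at 0.416, 0 and 0.108 FPKM in liver and at 11.8, 9.06 and 5.38 in kidney. Kidney lay above every other library. The log2 difference for liver minus kidney was −3.01 ± 0.25 (limma adjusted p = 9.10e-06). The model passed the filter through kidney libraries alone, so that this difference is partly built into the filter. Of the other 3 NK-2 type models, 1 was listed at 0 throughout and GOAT_ENSBTAP00000001615 reached 1.22 FPKM in kidney replicate 3 without passing the filter.

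Threonine at residue 47 of the recognition helix is found in few homeodomain families. The 2 tested models with it were both lower in heart than in kidney and differed in liver. GOAT_ENSBTAP00000014710 (scaffold 532, 1407038 to 1409658, minus strand, 148 residues) had the highest mean of the 97 homeobox models in the kidney-labelled libraries. Its level was 19.3, 46.6 and 24.6 FPKM in kidney, 0, 0.268 and 0.263 in heart and 0 in all 3 liver libraries. Kidney did not overlap the other tissues, and the log2 difference for heart minus kidney was −4.64 ± 0.29 (limma adjusted p = 1.36e-06). This model too passed the filter through kidney libraries alone, so that its difference is partly built into the filter. It lay on the same scaffold as GOAT_ENSBTAP00000028522, 1424 kb away. Its nearest homeobox neighbour, GOAT_ENSBTAP00000032830, also with threonine at residue 47, lay 65.1 kb away and was listed at 0 in all 9 libraries.

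GOAT_ENSP00000282728 (scaffold 1029, 1362468 to 1364840, minus strand) was the highest homeobox model of liver. It stood at 30.3, 8.67 and 24.7 FPKM in liver, 17.7, 12.3 and 13.7 in kidney and 1.82, 2.92 and 2.16 in heart. Liver and kidney overlapped and both lay above heart. The log2 difference was −2.60 ± 0.40 for heart minus liver (limma adjusted p = 0.000488) and −2.24 ± 0.40 for heart minus kidney (limma adjusted p = 0.000971). Liver minus kidney was 0.36 ± 0.40 (limma adjusted p = 0.44), and with median ratio scaling 1.21 ± 0.43 (limma adjusted p = 0.0401). Without liver replicate 2, the lowest of its tissue, it was 0.88 ± 0.25 (limma adjusted p = 0.0158).

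**Figure D3:**
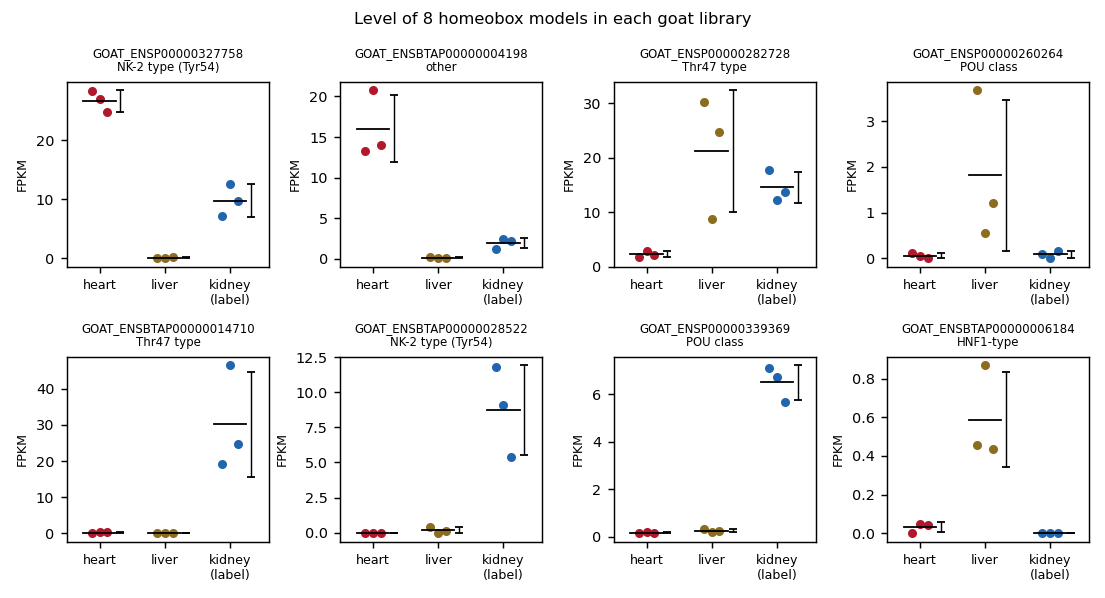
FPKM of 8 homeobox models in each library (points, 3 per labelled tissue), with the mean as a line and the SD as a bar. Upper row, models high in heart (GOAT_ENSP00000327758, GOAT_ENSBTAP00000004198) or liver. Lower row, 3 models high only in the libraries labelled kidney among these 9, and the HNF1-type model GOAT_ENSBTAP00000006184, which was listed at 0 in all 3 of them.

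GOAT_ENSBTAP00000004198 (scaffold 87, 2335027 to 2409179, plus strand, 270 residues) belonged to none of the named classes and was the second heart model of the 97. Its level was 13.3, 20.8 and 14.0 FPKM in heart, 0.172, 0.0817 and 0.0886 in liver and 1.21, 2.45 and 2.18 in kidney. The tissues did not overlap. Heart exceeded liver by 3.91 ± 0.23 (limma adjusted p = 7.60e-07) and kidney by 2.53 ± 0.23 (limma adjusted p = 1.56e-05). The model closest to it in sequence, GOAT_ENSBTAP00000048217, shared 57 of 60 homeodomain residues and stayed at or below 0.195 FPKM in heart, was listed at 0 in liver and reached 0.0856 in 1 kidney library.

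The POU class joins a second DNA-binding domain to a homeodomain with cysteine at residue 50, and its known members include broadly expressed factors and factors of B lymphocytes. Of 7 models, 4 were tested and 2 were listed at 0 in every library. GOAT_ENSP00000339369 (scaffold 777, 115083 to 136765, plus strand, 519 residues) stood at 7.09, 6.74 and 5.68 FPKM in kidney, 0.172, 0.208 and 0.154 in heart and 0.326, 0.191 and 0.253 in liver. The kidney values stood clear of both other tissues. The log2 difference was −2.67 ± 0.14 for heart minus kidney (limma adjusted p = 5.95e-07) and −2.57 ± 0.14 for liver minus kidney (limma adjusted p = 7.16e-07). These differences are partly built into the filter, which the model passed through kidney libraries alone. GOAT_ENSBTAP00000034020 (scaffold 522, 758 residues, the longest protein of the set) was present in all 9 libraries. It was at 1.29, 1.65 and 1.02 FPKM in heart, 1.19, 1.45 and 1.02 in liver and 5.09, 4.61 and 3.82 in kidney, with heart and liver overlapping. Heart minus kidney was −1.25 ± 0.18 (limma adjusted p = 0.000245).

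GOAT_ENSP00000260264 (scaffold 548, 2915564 to 2993119, plus strand) was the model elevated in liver. Its liver values of 3.68, 0.544 and 1.22 FPKM differed widely, against 0.117, 0.0531 and 0 in heart and 0.0994, 0 and 0.151 in kidney. Every liver library lay above the other 6, and liver minus kidney was 1.22 ± 0.34 (limma adjusted p = 0.0101). The model passed the filter through its 3 liver libraries alone, so that it was not tested once any of them was left out. GOAT_ENSBTAP00000021764 (scaffold 521) was at 1.19, 0.855 and 0.756 FPKM in heart, 0.352, 0.565 and 0.254 in liver and 1.29, 0.784 and 0.819 in kidney. Heart exceeded liver by 0.48 ± 0.17 (limma adjusted p = 0.0409), a call lost with median ratio scaling (0.44 ± 0.20, limma adjusted p = 0.0886), with equal sums and on leaving out any of 7 of the 9 libraries.

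HNF1-type homeodomains, with an alanine at residue 50, include those of factors known from liver and kidney epithelium. The class was set here by a short helix sequence alone, so that neither model is identified as such a factor. The 2 models differed in where they were high. GOAT_ENSBTAP00000006184 (scaffold 1444, 272211 to 325535, minus strand, 553 residues) was at 0.457, 0.871 and 0.437 FPKM in liver, 0, 0.0456 and 0.0453 in heart and listed at 0 in all 3 libraries labelled kidney. It was above 0.5 FPKM in 1 library and was not tested. GOAT_ENSP00000401769 (scaffold 16, 1196387 to 1300020, plus strand, 435 residues) was detected everywhere. It stood at 1.38, 2.30 and 1.49 FPKM in heart, 1.37, 3.50 and 2.63 in liver and 5.52, 7.45 and 7.94 in kidney. Kidney lay above the overlapping heart and liver values. Liver minus kidney was −1.22 ± 0.26 (limma adjusted p = 0.00295), and −0.51 ± 0.24 with median ratio scaling (limma adjusted p = 0.1001), where the call was lost, as with quantile normalization.

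Paired-like homeodomains form a large family with roles in limb, craniofacial and germ line development. Of 21 models, 2 were tested, both higher in heart than in liver, and they shared 58 of 60 homeodomain residues. GOAT_ENSBTAP00000003817 (scaffold 653) was at 1.30, 4.14 and 3.59 FPKM in heart, 0, 0.512 and 0.191 in liver and 1.68, 2.54 and 2.55 in kidney. Heart lay above liver by 1.64 ± 0.31 (limma adjusted p = 0.00174) and overlapped kidney. The predicted model goat_GLEAN_10013822 (scaffold 727) was at 1.29, 3.22 and 1.51 FPKM in heart, 1.32, 1.35 and 2.05 in kidney and listed at 0 in all 3 liver libraries. Near-identical stretches can share reads. Whether this affects the values of this pair, or of other models with near-identical homeodomains, was not tested. Another paired-like model, GOAT_ENSP00000398704 (scaffold 945), was detected in heart alone at 0.446, 0.816 and 0.674 FPKM and listed at 0 in the other 6 libraries. It did not pass the filter, and GOAT_ENSBTAP00000038094, whose homeodomain was identical to it over all 60 residues, was listed at 0 throughout.

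Among the 22 models outside these classes, 12 were listed at 0 in every library and 4 were tested. GOAT_ENSP00000372170 (scaffold 690, 3704495 to 3704797, 101 residues) was at 2.38, 3.72 and 2.17 FPKM in heart, 0, 0.605 and 0 in liver and 1.88, 2.86 and 2.66 in kidney. Heart and kidney overlapped, and heart exceeded liver by 1.66 ± 0.25 (limma adjusted p = 0.000408). GOAT_ENSBTAP00000001886 (scaffold 827) was at 0.450, 1.63 and 1.08 FPKM in heart, 1.14, 0.963 and 1.74 in liver and 3.02, 4.07 and 1.36 in kidney, with overlap between all tissues. Heart minus kidney was −0.87 ± 0.32 (limma adjusted p = 0.0368), and the call was lost with median ratio scaling (−0.45, limma adjusted p = 0.209), quantile normalization (−0.28, limma adjusted p = 0.410) and no filter, and without heart replicate 1 or 3 or kidney replicate 1 or 2.

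GOAT_ENSBTAP00000019352 (scaffold 1327, 417169 to 421565, plus strand) varied widely between the libraries labelled kidney. Its level was 1.99, 16.5 and 30.3 FPKM in kidney, 3.65, 8.33 and 7.77 in heart and 2.39, 3.72 and 4.15 in liver. The library labelled kidney replicate 1 lay below every heart and liver library, while the other two lay above all of them. Liver minus kidney was −1.44 ± 0.73 (limma adjusted p = 0.110). With the replicate number as a block it was −1.44 ± 0.49 (limma adjusted p = 0.0288), and without kidney replicate 1 it was −2.43 ± 0.38 (limma adjusted p = 0.000796).

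**Figure D4:**
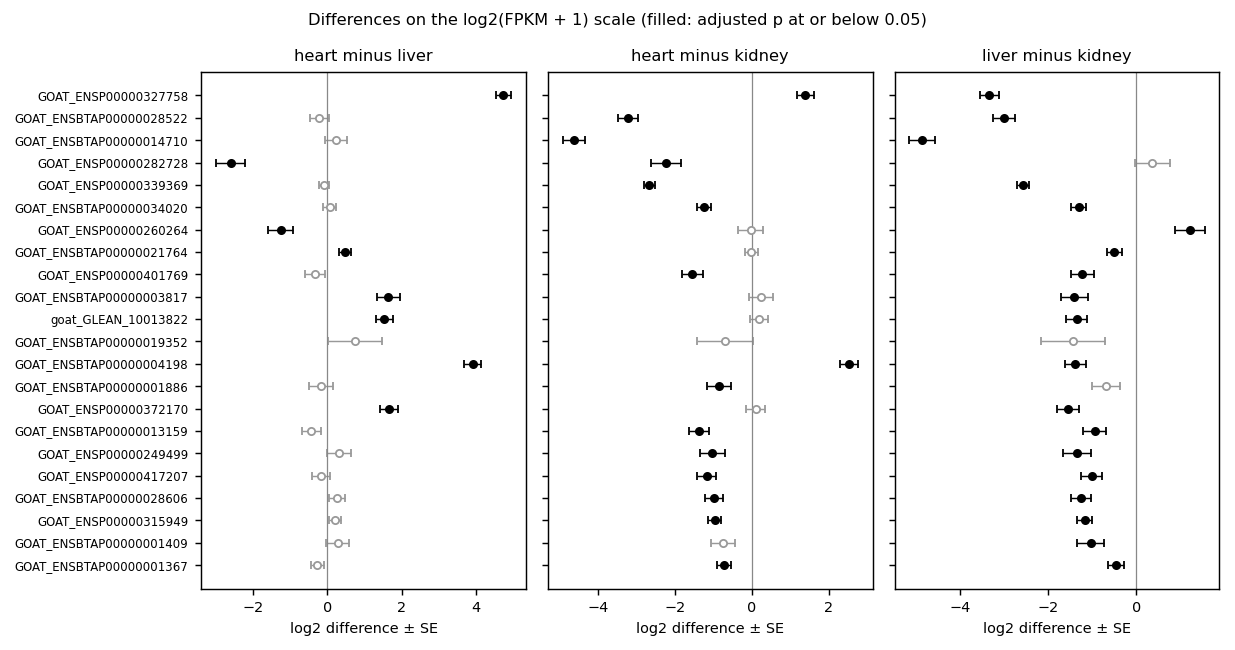
Log2 difference between tissues on the log2(FPKM + 1) scale, with its SE as a bar, for the 22 tested homeobox models in the 3 comparisons (limma on 9 libraries, 3 per tissue). Filled points have an adjusted p at or below 0.05. Most points lie left of 0 in both comparisons with kidney. Passing the test as higher in kidney were 13 of 22 for heart minus kidney (45.3% of all tested identifiers) and 18 of 22 for liver minus kidney (51.6%). Right of 0, 2 passed as higher in heart than kidney (17.9%) and 1 as higher in liver than kidney (13.4%). Differences against a tissue listed at 0 in all libraries depend on the pseudocount of 1.

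The Hox-type clusters were runs of at least 4 homeobox models on a scaffold with gaps of at most 100 kb. There were 4 runs with 31 models, all with glutamine at residue 50, and within each run every model lay on the same strand. The run on scaffold 1341 held 9 models from 3104520 to 3198347 (93828 bp, plus strand). Scaffold 820 held 9 from 643043 to 746888 (103846 bp, minus strand) and scaffold 896 held 9 from 1684876 to 1851281 (166406 bp, minus strand). Scaffold 486 held 4 from 3056 to 47655 (44600 bp, plus strand), and its first model began at base 3056 of the scaffold. A short tryptophan motif of the hexapeptide kind, which contacts partner proteins, was found somewhere in the protein in 15 of the 31. Its place relative to the homeodomain was not checked. More divergent forms of the motif were not searched for, so that the others may still hold one.

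Some homeodomains of different runs resembled each other closely. Counted in the direction of transcription, model 1 of the run on scaffold 1341 was most like model 1 of scaffold 820, with 52 of 60 residues identical, and model 4 like model 3 of scaffold 820, with 57. Near the other end, model 8 of scaffold 820 was most like model 8 of scaffold 896, with 59, and model 9 of scaffold 820 like model 9 of scaffold 1341, with 52. These pairs were picked as examples. Others matched at different places, such as model 6 of scaffold 1341 with model 3 of scaffold 896, with 58, and the ninth model of scaffold 896 had no close match in the other runs, the best sharing 29.

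The clustered models were low everywhere. Summed over all 31, FPKM was 1.25, 3.21 and 2.19 in heart, 2.37, 2.62 and 2.23 in liver and 11.6, 18.9 and 12.01 in kidney. Heart and liver overlapped, and every kidney library lay above them. Of the 31, 12 were listed at 0 in all 9 libraries. Of the 19 detected, 16 had their highest mean in kidney (84.2%), where 55.9% of all detected goat identifiers and 18 of 36 detected homeobox models outside the runs had theirs. These counts are a description, since the models share libraries and some homeodomains, mostly of different runs, are near-identical.

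Level varied along each run. The models farthest upstream were listed at 0 in all 9 libraries, 4 in a row on scaffold 1341, 3 on scaffold 820 and 1 each on scaffolds 896 and 486. On scaffold 1341 the next 3 models, from 29.6 to 57.6 kb, held most of the signal, and the last was again at 0. On scaffold 896 the highest levels came from the seventh and eighth models, at 146 and 154 kb, and the ninth was at 0. On scaffold 486 no value exceeded 0.297 FPKM, and the models with signal had it in kidney alone.

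**Figure D5:**
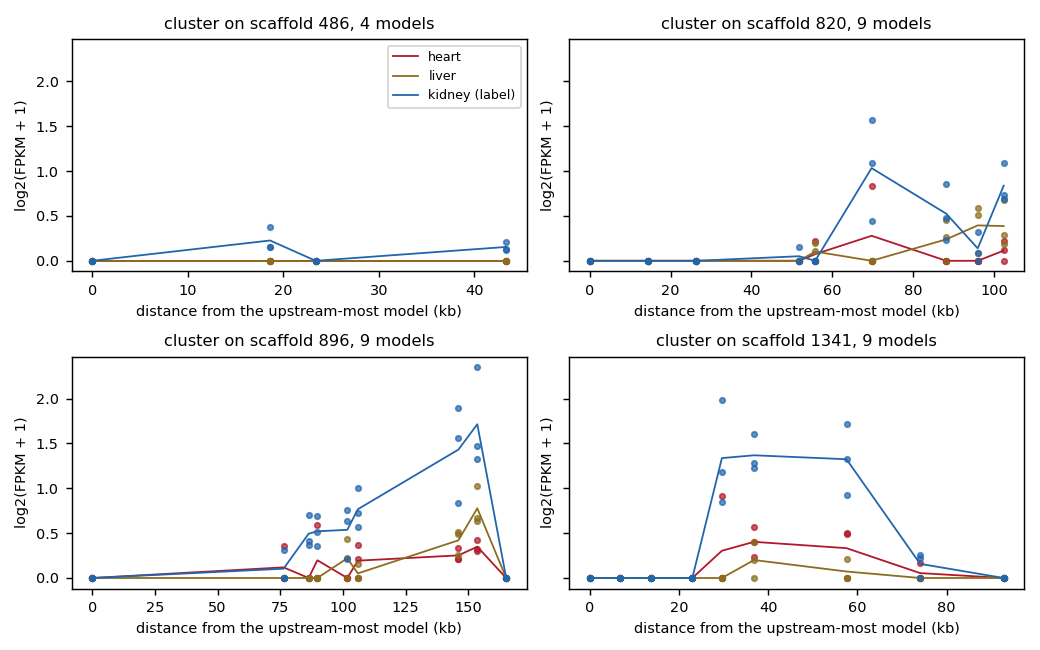
Level, as log2(FPKM + 1), of the models in the 4 Hox-type clusters by distance in kb from the model farthest upstream, in the direction of transcription. Points are libraries and lines join the means of 3 libraries per labelled tissue. The upstream models lie at 0 in every tissue (4, 3, 1 and 1 of them on scaffolds 1341, 820, 896 and 486), and kidney lies above heart and liver at most places with signal.

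Of the 31 clustered models, 7 were tested, 3 of which passed the filter through kidney libraries alone. None of the 7 passed the test between heart and liver. All 7 were higher in kidney than in liver (51.6% of all tested identifiers were), 6 were higher in kidney than in heart (45.3%), and 6 were elevated in kidney (34.2%). GOAT_ENSBTAP00000013159, the eighth on scaffold 896, was at 1.503, 4.10 and 1.77 FPKM in kidney, 0.250, 0.232 and 0.341 in heart and 0.549, 0.594 and 1.04 in liver. The tissues did not overlap, and heart minus kidney was −1.37 ± 0.26 (limma adjusted p = 0.00145). Liver minus kidney was −0.94 ± 0.26 (limma adjusted p = 0.0106), a call lost with median ratio scaling (−0.44, limma adjusted p = 0.122) and quantile normalization (−0.29, limma adjusted p = 0.306). GOAT_ENSP00000417207, beside it, was at 2.71, 1.96 and 0.788 FPKM in kidney, 0.260, 0.159 and 0.157 in heart and 0.431, 0.405 and 0.191 in liver. The kidney values did not overlap the others, and liver minus kidney was −1.01 ± 0.25 (limma adjusted p = 0.00539), or −0.60 ± 0.25 with median ratio scaling, where the call was lost (limma adjusted p = 0.0722), as with quantile normalization. GOAT_ENSP00000417207 passed the filter through kidney libraries alone, so that its difference is partly built into the filter.

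On scaffold 1341, GOAT_ENSP00000315949, sixth in the run, was at 1.42, 2.03 and 1.34 FPKM in kidney, 0.180, 0.485 and 0.320 in heart and 0.318, 0.150 and 0 in liver. The kidney values stood clear of both, with heart minus kidney at −0.96 ± 0.17 (limma adjusted p = 0.00102). This model passed the filter through kidney libraries alone, so that its difference is partly built into the filter. Its homeodomain matched that of the silent first model on scaffold 486, GOAT_ENSP00000040584, at 57 of 60 residues. GOAT_ENSBTAP00000028606, seventh in the run, was at 0.897, 2.29 and 1.51 FPKM in kidney, 0, 0.417 and 0.409 in heart and 0, 0.162 and 0 in liver. Heart minus kidney was −0.99 ± 0.23 (limma adjusted p = 0.00387), a call lost with quantile normalization (−0.54, limma adjusted p = 0.0756). This model too passed the filter through kidney libraries alone. GOAT_ENSP00000249499, the first of the run with signal, was at 0.804, 2.94 and 1.26 FPKM in kidney, listed at 0 in liver, and at 0.880 in heart replicate 3 and 0 in the other heart libraries. Its heart and kidney values overlapped, and heart minus kidney was −1.03 ± 0.32 (limma adjusted p = 0.0182). The call was lost with median ratio scaling (−0.73, limma adjusted p = 0.0622), with quantile normalization (−0.61, limma adjusted p = 0.136) and without heart replicate 1, heart replicate 2 or kidney replicate 2.

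The tested pair on scaffold 820 was lower. GOAT_ENSBTAP00000001409, sixth in the run, was at 0.356, 1.96 and 1.13 FPKM in kidney, 0.785 in heart replicate 2 and 0 in the other heart and in all liver libraries. Heart minus kidney was −0.75 ± 0.31 (limma adjusted p = 0.0544), and with the replicate block −0.75 ± 0.24 (limma adjusted p = 0.0219). GOAT_ENSBTAP00000001367, the last of the run, was at 0.666, 1.13 and 0.608 FPKM in kidney, 0, 0.169 and 0.0834 in heart and 0.143, 0.604 and 0.219 in liver. Heart minus kidney was −0.72 ± 0.18 (limma adjusted p = 0.00592), a call lost with quantile normalization (−0.40, limma adjusted p = 0.101). Liver minus kidney was −0.45 ± 0.18 (limma adjusted p = 0.0493). That call was lost with median ratio scaling (−0.15, limma adjusted p = 0.531), quantile normalization (−0.03, limma adjusted p = 0.910), equal sums and a pseudocount of 0.1, and on leaving out any of 8 of the 9 libraries.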

How the data were processed

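The authors mapped reads to the goat genome (CHIR_1.0 in the study's methods, while the labels of the goat samples name the cattle build UMD3.1, a conflict left unsettled) and quantified FPKM with Cufflinks 2.2.1. The deposited goat table holds log2(FPKM + 1), which was converted back to FPKM. Goat heart columns were matched to samples by tissue and number. Scaffold positions, strands and proteins came from the headers and entries of a deposited goat protein file. Identifiers matched 0 genes of the reference table (cattle, ARS-UCD2.0), so no symbols are given, and lists of symbols and cell markers could not be used.

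The members, classes and lists were chosen with earlier results of these data known. Classes were set by sequence motifs and residues, partly after the files were seen.

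limma 3.58.1 (R 4.3.3) was fitted to log2(FPKM + 1) of all identifiers above 0.5 FPKM in at least 3 of 9 libraries, with trended empirical Bayes variances and Benjamini-Hochberg adjustment per comparison. It was tested on simulated data. A fold change on this scale understates low genes, FPKM is relative to all transcripts of a library, and an exact 0 can be a failed estimate. Named were models elevated in a tissue without overlap (up to 8 per tissue), the 5 highest per tissue and the clustered models, plus others singled out after their values were seen. Libraries of a tissue came from separate animals by the study's methods. Same-numbered libraries of different tissues had correlated deviations in 9 of 9 pairs (r from 0.146 to 0.473), and other pairs ranged from −0.417 to 0.134. The main fit left this pairing out, so that its SEs and adjusted p-values are unpaired. Only in the replicate block were replicate numbers taken to pair libraries. Alternatives were other scalings, filters and pseudocounts, the replicate block and leaving out each library. The cattle and sheep tables were not used. Figures were drawn with matplotlib 3.10.9.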

Additional observations from a re-analysis of the deposited data

How the results depend on the processing

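Of 42 calls on the 22 tested models, 34 remained with median ratio scaling, 40 with equal sums, 32 with quantile normalization and 41 each with no filter and with a pseudocount of 0.1. No call turned its direction. The replicate block kept all 42 and added 2. It gave 14 models higher in kidney than in heart (49.9% of all tested identifiers). Higher in kidney than in liver were 19 (56.2%), and 12 were elevated in kidney (38.5%).

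Under the study's filter (above 0.5 FPKM in over 80% of libraries) only 5 models were tested. Higher in heart than in liver were 0 instead of 6 (29.8% of all tested identifiers), and higher in liver 1 (17.9%). For heart against kidney the counts were 0 and 4 (16.6% and 46.8%), and for liver against kidney 0 and 2 (10.2% and 53.3%). Elevated in heart, liver and kidney were 0, 0 and 2 (12.8%, 6.15% and 34.4%). With no filter 55 models were tested. Higher in liver than heart were 5 (15.6%), in heart than kidney 4 (14.7%) and in liver than kidney 3 (11.1%). Elevated in heart and liver were 4 and 3 (11.9% and 8.02%). Median ratio scaling gave 4 higher in heart than kidney (29.2%) and 2 in liver than kidney (26.9%). Under this scaling 4, 2 and 6 were elevated in heart, liver and kidney (19.7%, 15.7% and 16.3%). Quantile normalization gave 6 higher in heart than kidney (28.0%), and 6 and 5 elevated in heart and kidney (19.7% and 19.4%). With a minimum log2 difference of 1, 7 were elevated in kidney, a setting for which the share of all identifiers was not counted.

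Leaving out 1 library gave 5 to 6 models higher in heart than liver, 1 to 2 higher in liver than heart, 5 to 13 higher in kidney than heart, 0 to 1 higher in liver than kidney, 10 to 18 higher in kidney than liver, and 0 to 1 and 3 to 11 elevated in liver and kidney. For the counts higher in kidney the low values came without a kidney library. Models above 0.5 FPKM in kidney libraries alone then no longer passed the filter, and some that passed lost their call. Without kidney replicates 1, 2 and 3, 8, 5 and 7 were higher in kidney than heart (44.0%, 37.2% and 38.9%). Of the 16, 15 and 15 models tested then, 11, 10 and 11 were higher in kidney than liver (50.1%, 42.8% and 44.8%). Elevated in kidney were 6, 3 and 5 of them (32.5%, 26.2% and 27.6%). For the counts higher in liver the low values came without a liver library, when GOAT_ENSP00000260264 no longer passed the filter. Without liver replicate 2 the model elevated in liver was GOAT_ENSP00000282728 instead. In the 6 heart and liver libraries alone, a fit added after seeing the data, all 8 calls between these tissues remained and 1 was gained.

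Models expressed per library averaged 25.3, 21.0 and 34.7 in heart, liver and kidney above 0.1 FPKM and 10, 5.67 and 19.0 above 1 FPKM. With median ratio scaling liver had 12.7 and kidney 22, and with core residues required kidney had 22. Depth was unknown, which limits models near 0. For other changes the cause was not tested.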

Other observations

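The motif leaves out homeodomains with 3 extra residues between helices, among them those of PBX proteins, which bind DNA together with Hox proteins. By 2 further motifs chosen after the files were seen, 16 goat models were of this kind and 13 were tested in the same limma fit. Of these 13, 2 passed the filter through heart libraries alone and 1 through kidney libraries alone. Higher in heart than in liver were 8 of the 13 (29.6% of all tested identifiers were) and higher in liver 0 (19.6%). Against kidney, 7 were higher in heart (17.9%) and 6 in kidney (45.3%). Higher in kidney than in liver were 8 (51.6%), and higher in liver 0 (13.4%). Elevated were 7 in heart (14.5%), 0 in liver (9.59%) and 5 in kidney (34.2%).

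GOAT_ENSP00000331608 (scaffold 43) was at 8.24, 14.9 and 10.5 FPKM in heart, 0, 0.225 and 0.504 in liver and listed at 0 in all 3 kidney libraries. Heart exceeded liver by 3.28 ± 0.23 on the log2 scale (limma adjusted p = 2.34e-06). GOAT_ENSP00000378132, on the same scaffold, was at 0.884, 1.19 and 1.51 FPKM in heart and listed at 0 in the other 6 libraries.

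GOAT_ENSP00000384461 (scaffold 185) was at 10.1, 17.2 and 11.3 FPKM in kidney, 3.67, 3.88 and 3.13 in heart and 1.09, 0.958 and 1.10 in liver, with no overlap between tissues. Heart minus kidney was −1.58 ± 0.21 (limma adjusted p = 0.000169). The PBX-type model GOAT_ENSBTAP00000053543 (scaffold 1362) was the highest of these models, at 40.4, 45.4 and 44.8 FPKM in kidney, 13.1, 22.2 and 24.2 in heart and 15.6, 21.5 and 25.6 in liver, with heart and liver overlapping.

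Of the 2 models marked as copies, GOAT_ENSBTAP00000051506-D2, inside the run on scaffold 820, was at 1.74 FPKM in kidney replicate 1 and 0 in the other libraries. GOAT_ENSBTAP00000038493-D3 (scaffold 135) was at 0, 1.65 and 0.605 FPKM in heart, 0.864 in liver replicate 3 and 0 elsewhere.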
